A study of Mus musculus with 12 samples.

Results

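Pim kinases are a small family of serine/threonine kinases encoded by 3 paralogues, Pim1, Pim2 and Pim3. The members were the rows of the count table with these symbols, that is, 3 of 31301 gene symbols, and all 3 passed the filter on low counts that left 10861 genes for testing. The table came from RNA sequencing of mouse basophils (C57BL/6J, wild type) grown from bone marrow. Bone marrow cells were cultured for 7 days with 0.3 ng/mL interleukin-3 (IL-3) or with thymic stromal lymphopoietin (TSLP), for which the treatment protocol gives 1 µg/mL and another label gives the same number in mg/mL. Bone marrow-derived basophils of each culture were then sorted by flow cytometry into FcεRIαhi CD49blo cells, which the labels call immature and the study calls pre-basophils, or into mature FcεRIαlo CD49bhi cells. Each of the 2 cytokines thus gave an immature and a mature group, written IL-3 immature and so on, and each of the 4 groups had 3 libraries. No group lacked a cytokine, so each comparison set a stage or a cytokine against the other. The cells were grown in culture from whole marrow and were not taken from tissue. A figure legend of the study counts the replicates as cultures. The labels do not say how many mice these came from, so the p values measure the spread between these libraries.

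Unlike most kinases, the Pim kinases have no regulatory domain that must be switched on by phosphorylation, so their activity follows the amount of protein, and this in turn depends on transcription and on how fast the protein is degraded. Their genes are textbook targets of cytokine receptors that signal through Janus kinases and the transcription factor STAT5. The receptor for IL-3 joins its alpha chain (Il3ra) to a beta chain (Csf2rb, and in mice also Csf2rb2), and the receptor for TSLP joins Crlf2 to the alpha chain of the IL-7 receptor (Il7r). In blood cells the Pim kinases promote survival and growth, and their substrates include the death promoter BAD and the cell cycle inhibitors p21 and p27.

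All 3 genes lie on the plus strand, on different chromosomes. In GRCm38, Pim1 (ENSMUSG00000024014.8) spans chr17:29490753-29496112, Pim2 (ENSMUSG00000031155.16) spans chrX:7878262-7883432 and Pim3 (ENSMUSG00000035828.11) spans chr15:88862186-88865726. Because the paralogues differed in how they responded, their promoters are set side by side here. The following are the 250 bases before the annotated start sites, from RefSeq (GRCm38.p6, plus strand), at chr17:29490535-29490784 for Pim1, chrX:7878056-7878305 for Pim2 and chr15:88861944-88862193 for Pim3, with the only motif match in capitals.
Pim1: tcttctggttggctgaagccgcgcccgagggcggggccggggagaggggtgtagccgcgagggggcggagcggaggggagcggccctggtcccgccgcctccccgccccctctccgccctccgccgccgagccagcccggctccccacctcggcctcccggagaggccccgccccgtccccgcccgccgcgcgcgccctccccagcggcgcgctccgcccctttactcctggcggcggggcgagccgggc
Pim2: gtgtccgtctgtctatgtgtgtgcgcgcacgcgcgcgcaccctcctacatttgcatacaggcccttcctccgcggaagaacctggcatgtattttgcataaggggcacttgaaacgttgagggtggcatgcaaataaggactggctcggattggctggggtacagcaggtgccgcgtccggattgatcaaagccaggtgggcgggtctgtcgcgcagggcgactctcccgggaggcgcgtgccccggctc
Pim3: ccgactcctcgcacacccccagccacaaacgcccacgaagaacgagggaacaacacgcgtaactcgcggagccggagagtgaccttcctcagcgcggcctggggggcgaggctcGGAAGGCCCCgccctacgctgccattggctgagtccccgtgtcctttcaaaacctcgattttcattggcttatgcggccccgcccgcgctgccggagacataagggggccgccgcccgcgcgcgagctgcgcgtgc
The Pim1 stretch held 82.4% G and C, against 62.0% for Pim2 and 68.0% for Pim3.

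Both strands of each 300-base window, which adds 50 bases after the start site, were searched for TTCNNNGAA (the spacing bound by STAT5), the same palindrome with 4 bases in its middle, CACGTG (an E-box) and the kappaB motif. The capitals in Pim3 mark a kappaB match on the minus strand, from 136 to 127 bases before the start site. A second annotated start of Pim1, at chr17:29493085 within the gene, had a CACGTG from 58 to 53 bases before it. This match stands in aaacaggaatCACGTGgtctgaaacc. These 2 were the only matches in the 4 windows of the family. Of 32841 windows of the same length over all genes, 8.30% held TTCNNNGAA, 6.95% its form with 4 middle bases, 7.15% CACGTG and 8.46% the kappaB motif, and these matches are given as a description.

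The libraries held 1720065 to 3685285 counts. The 10 basophil markers (among them Mcpt8, Cd200r3 and Fcer1a) were detected in every group, although their summed level was higher in immature cells. It was 41238 to 44825 CPM (counts scaled to library size after TMM normalisation) in immature against 11667 to 14434 CPM in mature cells with IL-3, and 29021 to 32025 against 9259 to 12539 CPM with TSLP. The 6 mast cell markers together reached at most 8.90 CPM, with Tpsab1 and Mrgprb2 at 0 in every group. Counts of the ribosomal RNA rows (Rn45s, Rn18s and Rn28s1) made up 14.7% to 40.1% of a library, and since Rn45s was counted about as often as the other two together, the same reads may stand in more than 1 row, so the true share may be lower. Replicate 1 of TSLP mature stood apart. Its 8 neutrophil markers summed to 742.5 CPM against 38.8 and 49.9 in the other 2 libraries of the group, and its 9 B lineage markers to 190.2 against 21.6 and 22.8. The Pim fold changes and ratios that rest on TSLP mature cells are therefore also given without it, while levels and shares by group include it. The 10 cell cycle markers, which include Mki67 and Top2a, separated the stages, at 1873 to 1961 CPM (IL-3) and 1359 to 1371 CPM (TSLP) in immature cells and 57.3 to 79.4 CPM (IL-3) and 170 to 223 CPM (TSLP) in mature cells.

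Pim1 was the family member with the highest level in every library. It encodes the founding kinase of the family, first found at a site of retroviral insertion in lymphomas. Its 3 IL-3 immature libraries had 163.5, 203.7 and 194.3 CPM, from 337 to 713 counts. Its IL-3 mature libraries had 672.1, 735.1 and 859.6 CPM, from 1887 to 2018 counts. All IL-3 mature libraries were thus far above all IL-3 immature ones. The TSLP immature libraries had 399.0, 436.8 and 260.1 CPM and the TSLP mature libraries 487.5, 485.7 and 400.6 CPM. These groups overlapped, since replicate 2 of TSLP immature was above replicate 3 of TSLP mature.

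Pim2, which is found mainly in blood cells and promotes survival in parallel to the kinase AKT, had the widest range of the 3 genes as a ratio of its highest to its lowest library, though not in CPM. Its IL-3 immature libraries had 6.79, 8.28 and 7.61 CPM, from only 14 to 29 counts. Its IL-3 mature libraries had 37.8, 35.7 and 36.5 CPM, from 81 to 106 counts. Its TSLP immature libraries had 40.3, 50.4 and 56.5 CPM and its TSLP mature libraries 110.9, 99.3 and 93.5 CPM. No library of any group overlapped with a library of another, and both IL-3 groups lay below both TSLP groups, each with the immature cells below the mature ones. The middle neighbours of this order differ in both stage and cytokine, and their difference was not tested.

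Pim3, the most recently described paralogue, stayed within a narrow band. Its IL-3 immature libraries had 29.6, 31.1 and 38.4 CPM and its IL-3 mature libraries 36.0, 32.4 and 48.7 CPM. Its TSLP immature libraries had 38.2, 39.5 and 31.0 CPM and its TSLP mature libraries 36.4, 52.2 and 54.2 CPM. Every group overlapped with its neighbours in level. In these bulk libraries, fewer cells with a transcript and less transcript per cell cannot be told apart.

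**Figure D1:**
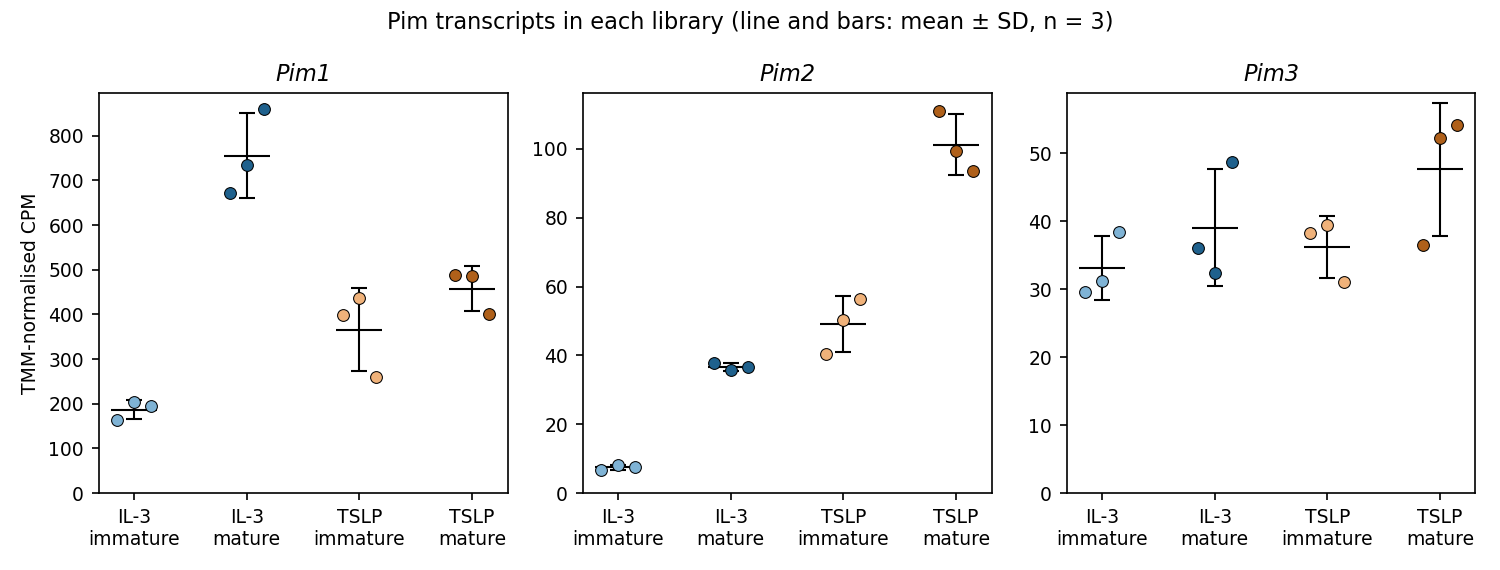
Level of each Pim transcript (CPM after TMM scaling, linear axis from 0) in the 12 libraries, by group. Points are libraries and bars give the mean ± SD of 3 libraries. Pim1 was highest in IL-3 mature cells (755.6 ± 95.4), Pim2 in TSLP mature cells (101.2 ± 8.84), and the Pim3 groups overlapped.

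In IL-3 cultures, Pim1 and Pim2 were both far lower in immature than in mature basophils. The Pim1 level was 187.2 ± 21.0 CPM in IL-3 immature against 755.6 ± 95.4 CPM in IL-3 mature cells (mean ± SD, n = 3 each), which is 4.03-fold lower (log2 fold change -2.01, SE 0.211, adjusted p = 1.15e-06, edgeR). Pim2 was at 7.56 ± 0.748 against 36.7 ± 1.03 CPM, which is 4.78-fold lower (log2 fold change -2.26, SE 0.204, adjusted p = 2.29e-07, edgeR). Pim3 was at 33.0 ± 4.71 against 39.0 ± 8.56 CPM and did not pass the test (log2 fold change -0.23, 95% interval -0.69 to 0.23, adjusted p = 0.403, edgeR). The stage comparison called 46.2% of all tested genes in IL-3 cultures, beside 2 of 3 members.

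In TSLP cultures, Pim2 alone passed the test between the stages. It was at 49.1 ± 8.19 CPM in TSLP immature and 101.2 ± 8.84 CPM in TSLP mature cells, which is 2.07-fold lower (log2 fold change -1.05, SE 0.166, adjusted p = 0.000233, edgeR). Pim1, at 365.3 ± 93.0 against 458.0 ± 49.7 CPM, gave a log2 fold change of -0.33 with a 95% interval of -0.76 to 0.10 (adjusted p = 0.263, edgeR). Pim3, at 36.2 ± 4.57 against 47.6 ± 9.72 CPM, gave -0.39 with a 95% interval of -0.84 to 0.05 (adjusted p = 0.186, edgeR). Of all tested genes, 25.1% were called here. Without replicate 1 of TSLP mature, the log2 fold changes were -0.88 for Pim2 (adjusted p = 0.000457), -0.18 for Pim1 (adjusted p = 0.574) and -0.46 for Pim3 (adjusted p = 0.0859).

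The difference between cytokines in the stage effect was tested itself, as an interaction. The immature minus mature log2 fold change was higher in TSLP than in IL-3 cultures by 1.69 for Pim1 (SE 0.290, adjusted p = 0.00349, edgeR) and by 1.21 for Pim2 (SE 0.263, adjusted p = 0.0146, edgeR). Both genes thus had a smaller gap between the stages with TSLP. For Pim3 the difference was -0.16 (95% interval -0.80 to 0.47, adjusted p = 0.834, edgeR). Only 4.19% of all tested genes were called for the interaction. Without replicate 1 of TSLP mature the values were 1.79 for Pim1 (adjusted p = 0.00153, edgeR) and 1.32 for Pim2 (adjusted p = 0.00452, edgeR). For Pim3 the value was then -0.28 (adjusted p = 0.598, edgeR). The Pim2 call was lost when libraries were thinned to the smallest total (1.08, adjusted p = 0.0516).

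Between cytokines, Pim1 and Pim2 moved in opposite directions in mature cells and in the same direction in immature cells. In mature cells, Pim1 was 1.65-fold lower with TSLP (log2 fold change -0.72, SE 0.204, adjusted p = 0.0179, edgeR), whereas Pim2 was 2.76-fold higher (log2 fold change 1.46, SE 0.171, adjusted p = 7.17e-05, edgeR). Pim3 gave 0.29 with a 95% interval of -0.15 to 0.73 (adjusted p = 0.337, edgeR). The background was 24.3% of all tested genes. The Pim1 call depended on single libraries, as it was lost without replicate 3 of IL-3 mature (adjusted p = 0.0666) and without replicate 3 of TSLP mature (adjusted p = 0.0594). Without replicate 1 of TSLP mature, the log2 fold change was -0.85 for Pim1 (adjusted p = 0.00928) and 1.31 for Pim2 (adjusted p = 5.84e-05). For Pim3 it was 0.37 (adjusted p = 0.176, edgeR).

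In immature cells, Pim2 was 6.39-fold higher with TSLP than with IL-3 (log2 fold change 2.67, SE 0.201, adjusted p = 3.95e-07, edgeR), and only 13.3% of all tested genes were called in this comparison. By p value Pim2 ranked 12 of the 10861 genes tested, and by the size of the change it ranked 87. Pim1 was 1.95-fold higher (log2 fold change 0.96, SE 0.206, adjusted p = 0.00664, edgeR), a call that was lost without replicate 2 of TSLP immature (0.78, adjusted p = 0.0524). Pim3 gave 0.13 with a 95% interval of -0.33 to 0.58 (adjusted p = 0.744, edgeR). With all 12 libraries, Pim3 passed an unadjusted p of 0.05 in 0 of the 5 comparisons in edgeR. Its change between the TSLP stages was larger without replicate 1 of TSLP mature (-0.46, SE 0.196, adjusted p = 0.0859, edgeR). Comparisons that share a group share its 3 libraries, so these comparisons are not independent of each other.

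**Figure D2:**
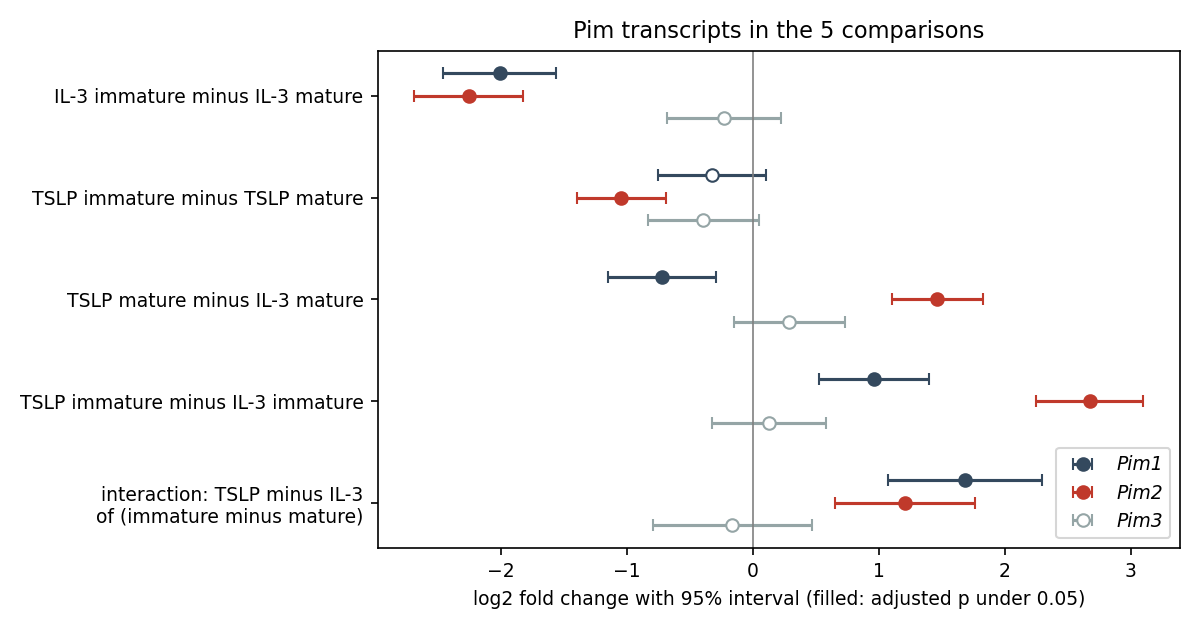
Log2 fold changes of Pim1, Pim2 and Pim3 in the 5 comparisons, with 95% intervals from the edgeR fit. Filled points passed an adjusted p of 0.05. Pim2 passed in all 5, Pim1 in all but TSLP immature minus TSLP mature, and the intervals of Pim3 included 0 throughout.

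Markers of other cells moved with some of these changes. The 8 macrophage and monocyte markers, all detected in every group, summed to 20.2 to 45.6 CPM in immature and 231.4 to 323.4 CPM in mature cells of IL-3 cultures, and to 97.7 to 124.3 CPM and 368.6 to 633.2 CPM in those of TSLP cultures. This sum was higher in mature cells of both cultures, as Pim2 was, and as Pim1 was in IL-3 cultures. The 8 neutrophil markers, also all detected, summed to 45.4 to 85.7 CPM in immature and 284.5 to 409.3 CPM in mature cells of IL-3 cultures, and to 10.9 to 47.3 CPM in TSLP immature cells. The 9 B lineage markers were higher with TSLP in both stages, as Pim2 was. They summed to 6.57 to 7.28 CPM in IL-3 immature against 35.9 to 42.6 CPM in TSLP immature cells, and to 2.14 to 3.28 CPM in IL-3 mature against 21.6 to 190.2 CPM in TSLP mature cells. The summed basophil markers given above went the other way between stages. They include Fcer1a and Itga2, which encode the FcεRIα and CD49b used for sorting. The study also reports lower Fcer1a, Mcpt8 and Prss34 in mature basophils, so this sum does not measure the share of basophils. The part of other cell types in the Pim values was not tested.

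To set the paralogues side by side, levels were divided by the length of the longest transcript, which is 2698 bases for Pim1, 2045 for Pim2 and 2427 for Pim3. Pim1 was then at 69.4 CPM per kb in immature and 280.1 in mature cells of IL-3 cultures, and at 135.4 and 169.7 in those of TSLP cultures. Pim2 was at 3.70, 17.9, 24.0 and 49.5 CPM per kb in the same order. Pim3 was at 13.6, 16.1, 14.9 and 19.6 CPM per kb. Pim1 was the highest of the 3 in 12 of 12 libraries, and the order of the other two turned. In IL-3 immature cells Pim3 was above Pim2 in all 3 libraries, and in TSLP cells Pim2 was above Pim3 in all 6. In IL-3 mature cells the order was mixed, with Pim2 above Pim3 in replicates 1 and 2 and below it in replicate 3.

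As a share of the summed length-scaled level, Pim1 made up 80.0% ± 1.57 of immature and 89.1% ± 0.835 of mature IL-3 libraries, and 77.0% ± 5.66 and 71.0% ± 2.07 of the TSLP libraries (mean ± SD, n = 3). The share of Pim2 was 4.27% ± 0.178 and 5.77% ± 0.764 in the IL-3 groups and 14.4% ± 5.10 and 20.7% ± 1.19 in the TSLP groups, immature before mature. The summed level itself was highest in IL-3 mature cells, at 314.1 ± 38.2 CPM per kb, and lowest in IL-3 immature cells, at 86.7 ± 9.17. TSLP immature cells had 174.3 ± 33.9 and TSLP mature cells 238.9 ± 19.3. These levels assume that each gene is made as its longest transcript and that its counts grow with transcript length. The study captured mRNA with oligo-dT beads, and how evenly the reads cover each transcript was not tested.

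**Figure D3:**
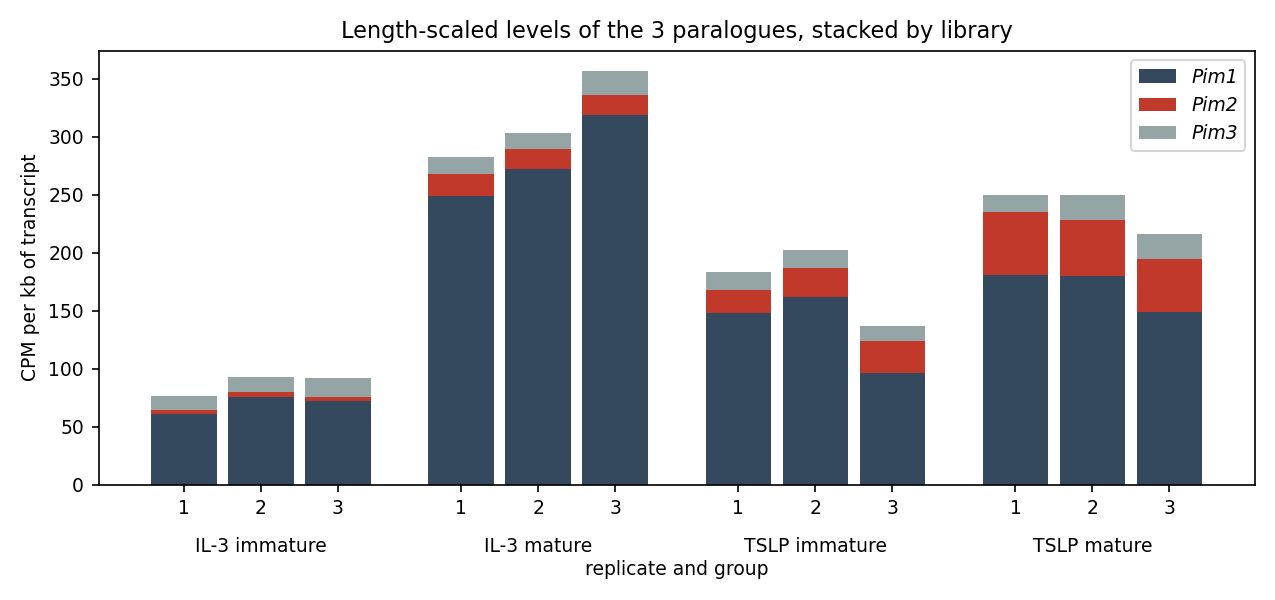
Length-scaled levels (CPM per kb of transcript, stacked, axis from 0) of Pim1, Pim2 and Pim3 in each library. Numbers under the bars are replicates. Pim1 was the largest part of each bar, and the Pim2 part was widest in TSLP mature cells, at 45.7 to 54.2 CPM per kb.

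The ratio of paralogues within a library does not depend on the scaling between libraries. The log2 ratio of Pim1 to Pim2 counts was 4.59 ± 0.0516 in immature and 4.35 ± 0.200 in mature cells of IL-3 cultures, and 2.87 ± 0.590 and 2.17 ± 0.102 in those of TSLP cultures (mean ± SD, n = 3). All IL-3 libraries were above all TSLP libraries. The mean difference of TSLP minus IL-3 within stages was -1.95 (exact permutation test within stages, two-sided, p = 0.005, adjusted p = 0.015 over 6 tests), and 0.005 is the smallest p that the 400 rearrangements allow. The ratio was also higher in immature than in mature cells by 0.47 (exact permutation p = 0.025, adjusted p = 0.0375), a call that was lost in 7 of 12 analyses that left out a library and at a larger pseudocount.

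The Pim2 to Pim3 ratio was higher with TSLP by 1.85 on the log2 scale, at 2.53 within immature and 1.17 within mature cells (exact permutation p = 0.005, adjusted p = 0.015). It was lower in immature than in mature cells by a log2 difference of -1.35 (exact permutation p = 0.01, adjusted p = 0.02). The Pim1 to Pim3 ratio went in opposite directions within the stages, being higher with TSLP in immature cells by 0.80 and lower in mature cells (-1.0), and the mean of -0.10 did not pass (exact permutation p = 0.785, adjusted p = 0.785). Between stages it differed by -1.78 with IL-3 and by 0.02 with TSLP, and the mean of -0.88 missed the threshold (exact permutation p = 0.055, adjusted p = 0.066). Without replicate 1 of TSLP mature, the TSLP minus IL-3 differences were -1.94 for Pim1/Pim2 (adjusted p = 0.015, exact permutation), 1.73 for Pim2/Pim3 (adjusted p = 0.015) and -0.22 for Pim1/Pim3 (adjusted p = 0.585). The immature minus mature differences were then 0.46 for Pim1/Pim2 (adjusted p = 0.126, exact permutation), -1.23 for Pim2/Pim3 (adjusted p = 0.03) and -0.77 for Pim1/Pim3 (adjusted p = 0.126).

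The genes upstream of the Pim kinases followed several patterns. Of 12 genes for receptor chains, Janus kinases and STAT proteins, all tested, 0 were higher and 6 lower in immature cells with IL-3, and 0 higher and 6 lower with TSLP. These are 50% of the list each, against 46.2% and 25.1% of all tested genes, and the IL-3 count is thus near the background. The TSLP count was 3 without replicate 1 or 2 of TSLP immature or replicate 3 of TSLP mature. Between cytokines, 1 was higher and 2 lower with TSLP in mature cells (25.0% against 24.3%), and 3 were higher and 1 lower in immature cells (33.3% against 13.3%). Csf2rb2 was at 392.9 CPM in immature against 1583 CPM in mature cells of IL-3 cultures (4.03-fold lower, adjusted p = 4.46e-07, edgeR), and at 731.3 against 1838 CPM in TSLP cultures (2.51-fold lower, adjusted p = 8.36e-05, edgeR). Il7r was at 8.15 CPM in immature and 251.3 CPM in mature cells with IL-3, and at 34.0 and 84.5 CPM with TSLP. It was lower with TSLP in mature cells (log2 fold change -1.57, adjusted p = 0.000138, edgeR) and higher in immature cells (2.08, adjusted p = 5.25e-05, edgeR), the directions in which Pim1 moved. Il3ra was lower with TSLP in both stages (log2 fold changes -1.42 and -1.45). Crlf2, the chain specific to TSLP, passed in 0 of the 4 comparisons, at 73.0 to 97.5 CPM by group mean, and Stat5a was higher with TSLP in mature cells (1.72-fold, adjusted p = 0.00545, edgeR).

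Of 16 STAT5 target genes, 14 were tested, and Ccnd1 and Bcl6 were too low. The Pim genes were kept out of this list. Like the other gene lists here, it was chosen with earlier results of these data known. Its shares beside those of all tested genes are therefore given as a description. In IL-3 cultures, 2 were higher and 10 lower in immature cells, with a median log2 fold change of -2.34 against -0.06 over all tested genes. This is 85.7% of those tested, against a background of 46.2%. In TSLP cultures, 0 were higher and 8 lower, with a median of -0.85 against -0.03 (57.1% called against 25.1%). In mature cells, 3 were higher and 3 lower with TSLP (median 0.30 against 0.09, 42.9% called against 24.3%), and in immature cells 9 were higher and 0 lower (median 1.34 against 0.04, 64.3% called against 13.3%). For the interaction, 7 were higher and 0 lower (median 1.21 against 0.02, 50% called against 4.19%). With single libraries left out, 6 to 9 were called between cytokines in immature cells and 5 to 8 for the interaction. The counts were then 12 to 13 between the IL-3 stages, 7 to 9 between the TSLP stages and 5 to 6 in mature cells.

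Within this list, Cish, a feedback inhibitor of cytokine receptors, was at 10.8 CPM in immature and 91.5 CPM in mature cells with IL-3, and at 118.2 and 235.2 CPM with TSLP, the same order of groups as Pim2. It was 10.6-fold higher with TSLP in immature cells (adjusted p = 1.77e-07, edgeR) and 2.57-fold higher in mature cells (adjusted p = 0.000509, edgeR). Socs3, another feedback inhibitor, was at 5.56 and 262.2 CPM with IL-3 and at 32.9 and 156.7 CPM with TSLP, immature before mature, the same order of groups as Pim1. It was 46.6-fold lower in IL-3 immature than in IL-3 mature cells (adjusted p = 7.31e-11, edgeR). Cdkn1a was also lower with TSLP in mature cells, by a log2 fold change of -1.17 (adjusted p = 0.00125, edgeR), while Myc was higher (1.79, adjusted p = 0.00103, edgeR). Osm, which encodes the cytokine oncostatin M, was at 1281 and 1292 CPM in IL-3 mature and TSLP mature cells, and its change between them (log2 fold change 0.01) did not pass. Ccnd2, a cyclin of the early cell cycle, was 11.1-fold lower in IL-3 immature cells and 4.43-fold lower in TSLP immature cells than in the mature cells of each culture.

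**Figure D4:**
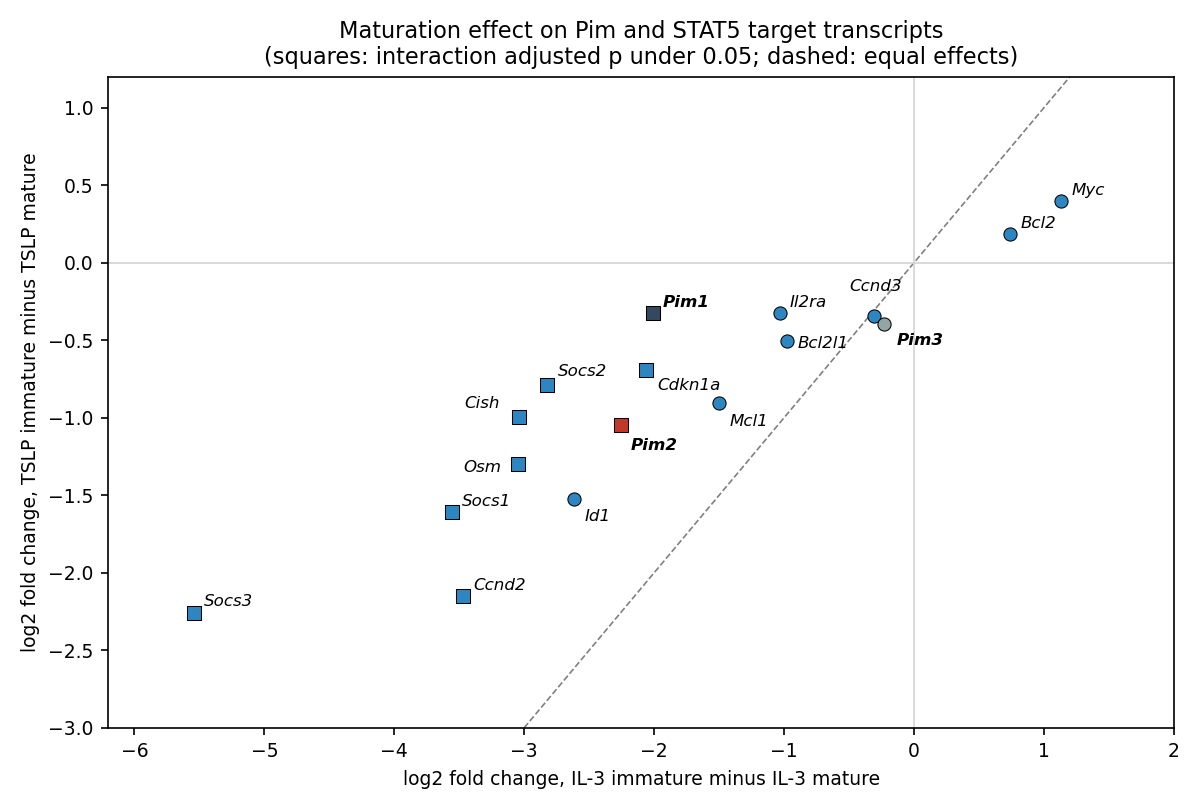
Log2 fold change of immature minus mature cells in IL-3 cultures (horizontal) and in TSLP cultures (vertical) for the 3 Pim genes and 14 STAT5 target genes. Squares had an interaction with an adjusted p under 0.05 and the dashed line marks equal effects. Pim1 (-2.01 and -0.33) and Pim2 (-2.26 and -1.05) lay above the line, as did Socs3 (-5.54 and -2.26).

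Of the 16 listed STAT5 targets, 10 were matched to the promoter windows used here, and TTCNNNGAA was found in at least 1 window of 3 of them (Cish, Socs3 and Bcl6). Over all genes 8.30% of windows held it, and some genes have several windows, so this count and that share are on different units.

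Among 19 genes for substrates of Pim kinases, all tested, 7 were higher and 8 lower in immature cells with IL-3 (median log2 fold change -0.48), and 6 were higher and 6 lower with TSLP (median -0.09). These are 78.9% and 63.2% of the list, against 46.2% and 25.1% of all tested genes, where the medians were -0.06 and -0.03. Cdkn1a, which encodes p21, was 4.17-fold lower in IL-3 immature than in IL-3 mature cells (adjusted p = 9.4e-07, edgeR). Cdc25a, a phosphatase that drives the cell cycle, was higher in immature cells, 6.93-fold with IL-3 and 4.25-fold with TSLP. Cxcr4, a chemokine receptor that PIM1 is known to phosphorylate, was 4.52-fold higher in immature cells with IL-3 (adjusted p = 2.72e-06, edgeR) and 3.66-fold with TSLP (adjusted p = 2.91e-05, edgeR). Between cytokines, 3 substrates were higher and 2 lower with TSLP in mature cells, and 2 were higher and 1 lower in immature cells. At 26.3% and 15.8% of the list, against 24.3% and 13.3% of all tested genes, both counts are near the background, and the count in mature cells was 3 without any single IL-3 mature library or without replicate 3 of TSLP mature. Bad was at 22.1 to 34.1 CPM by group mean and passed in 0 of the 4 comparisons.

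Other kinases act on survival in parallel to the Pim kinases. Of 7 genes for AKT, SGK and S6 kinases, 1 was higher and 2 lower in immature cells with IL-3, and 0 higher and 2 lower with TSLP. At 42.9% and 28.6%, against 46.2% and 25.1% of all tested genes, these are near the background. Sgk1 was 5.86-fold lower in IL-3 immature cells (adjusted p = 3.21e-07, edgeR) and 3.66-fold lower in TSLP immature cells (adjusted p = 1.24e-05, edgeR). With TSLP, 1 of the 7 was higher and 1 lower in mature cells, and 1 was higher and 0 lower in immature cells, which are 28.6% and 14.3% against 24.3% and 13.3%. The count in immature cells was 0 to 4 when single libraries were left out, with 0 without replicate 1 or 2 of IL-3 immature or replicate 3 of TSLP immature, and 4 without replicate 3 of IL-3 immature or replicate 1 of TSLP mature. For the interaction, 0 of 7 passed in edgeR or DESeq2, against 4.19% of all tested genes in edgeR. Of the 7, 1 had an unadjusted p under 0.05 in edgeR. This was Sgk1, which ranked 2000 by p value among the 10861 genes tested. Both interaction counts are thus near the background.

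Pim proteins are held stable by the chaperone HSP90 with CDC37 and are destabilised by the phosphatase PP2A. Of 9 genes for these proteins, 3 were higher and 1 lower in immature cells with IL-3, and 3 were higher and 0 lower with TSLP. At 44.4% and 33.3%, against 46.2% and 25.1% of all tested genes, the IL-3 count is near the background, and the TSLP count was 1 without replicate 2 of TSLP immature. Hsp90aa1 was 2.12-fold higher in immature cells with IL-3 (adjusted p = 0.000157, edgeR) and 1.89-fold with TSLP (adjusted p = 0.00163, edgeR), the direction opposite to that of Pim2. Ppp2r5a, a regulatory chain of PP2A, was 2.45-fold lower with TSLP in mature cells (adjusted p = 0.00119, edgeR), where 2 of the 9 were higher and 2 lower (44.4% against 24.3%), or 2 in all without replicate 3 of TSLP mature. In immature cells 0 were higher and 1 lower with TSLP (11.1% against 13.3%). For the interaction 0 of 9 passed in edgeR or DESeq2, against 4.19% of all tested genes in edgeR. An unadjusted p under 0.05 in edgeR was found for 2 of the 9, where a p of 0.0497 ranked 2000 of the 10861 genes tested. These interaction counts are thus near the background. Protein was not measured.

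The genes most like each member were ranked over 7549 genes by the Pearson r of log2 CPM over the 12 libraries, which fall into the 4 groups and share their scaling. Most like Pim1 were Klra2 (r = 0.969), Csrnp1 (0.969), Aldh3a2 (0.967), Atp1b1 (0.965) and Slpi (0.956). Most like Pim2 were Cish (r = 0.987), Nfkbie (0.985), Pilrb1 (0.984), Nampt (0.982) and Metrnl (0.979). Most like Pim3 were Tmem19 (r = 0.902), Btbd9 (0.853), Zfp488 (0.846), Slc39a3 (0.845) and Kdm4b (0.844). These are the highest values out of 7549 for each member. Whether unrelated genes would reach such values over 12 libraries was not tested. As descriptions, Slpi had 408.5 CPM in immature and 2813 CPM in mature cells of IL-3 cultures. Nampt, which makes a precursor of NAD, had 21.9 and 79.7 CPM there, and 124.6 and 186.9 CPM in immature and mature cells of TSLP cultures.

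Reads that fit more than 1 gene could touch Pim1 more than its paralogues. Of the 50-base stretches of the longest Pim1 transcript, 10.6% also occur, on either strand, in transcripts of Gm26885, which overlaps it on the opposite strand. Gm26885 had 0 to 7 counts in a library. For Pim2 the share was 2.15%, and for Pim3 it was 0%.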

How the data were processed

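Mouse bone marrow-derived basophils were sorted and sequenced as 12 libraries (4 groups of 3), and the groups were taken from the labels. The authors deposited raw counts per gene symbol. The study describes adapter removal (Cutadapt), alignment to reference RNA of GRCm38 (Bowtie2) and counting by gene. The processing notes of the submitters name mm10 and GRCm39. The sources used here do not state strand use, molecular identifiers or the treatment of reads that fit several transcripts. An unnamed row that equalled the total of the others (50% of each column) was left out.

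Library totals ran from 1720065 to 3685285 counts, so 1 count was worth 0.27 to 0.485 CPM (counts scaled to library size after TMM normalisation). Counting error is the lower limit of the precision, because amplified reads are not independent molecules. Genes were filtered with filterByExpr (minimum count 10, minimum total 15), which kept 10861 of 31301 symbols. A quasi-likelihood fit in edgeR 4.0.16 (R 4.3.3) held all 12 libraries with 4 group means and no block, and contrasts were tested by F tests. The Benjamini-Hochberg adjustment of P values ran over all tested genes, with a threshold of 0.05. Standard errors were derived from the F statistic.

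Ratios between paralogues were log2 ratios of counts (pseudocount 0.5), tested with exact two-sided permutations within strata. Levels were compared between genes as CPM per kb of the longest transcript in the GENCODE M21 annotation (GRCm38). Promoter windows were taken from RefSeq (GRCm38.p6).

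The members and the gene lists were chosen with earlier results of these data known. Genes of the lists were named by rule as up to 4 called members per list and comparison (mean level 10 CPM or more), by the largest absolute log2 fold change. The 5 genes most like each Pim gene were those with the highest Pearson r of log2 CPM (prior count 2) over the 12 libraries among genes above the same mean level. The alternatives were other scalings, DESeq2 1.42.0, limma-voom (limma 3.58.1), other filters, thinned libraries, a replicate block, fits of the compared groups only and each library left out in turn.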

Additional observations from a re-analysis of the deposited data

Results flagged for a closer look

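The change from mature to immature cells differed between the cytokines for the genes given here, by the interaction term of the edgeR fit. The list genes among them were named in part for the size of their change in this comparison, so their number is no result. All had a higher immature minus mature log2 fold change in TSLP than in IL-3 cultures. The differences were 1.69 for Pim1 (SE 0.290, adjusted p = 0.00349) and 1.21 for Pim2 (SE 0.263, adjusted p = 0.0146). Among the receptor chains it was 3.65 for Il7r (adjusted p = 8.35e-06). Among the STAT5 targets it was 3.29 for Socs3, 2.05 for Cish, 1.95 for Socs1, 1.75 for Osm, 1.37 for Cdkn1a and 1.32 for Ccnd2, with adjusted p values of 4.49e-06 to 0.0132. The call of Cdkn1a was lost without replicate 2 of TSLP immature (adjusted p = 0.0512). Groups of 3 libraries were too small for a test of single outlying libraries.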

How the results depend on the processing

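For Pim1, Pim2 and Pim3, 338 of 342 log2 fold changes under other settings kept their direction and their side of the threshold, and none reversed. Thinning the libraries gave 1.08 for the Pim2 interaction. Leaving out libraries gave -0.85 to -0.68 for Pim1 in TSLP mature minus IL-3 mature and 0.78 to 1.14 in TSLP immature minus IL-3 immature cells, losing 2 calls and 1 call. The immature minus mature Pim1/Pim2 ratio was 0.43 with a pseudocount of 2 and 0.36 to 0.64 without single libraries, losing 7 calls. The Pim1/Pim3 ratio was -0.98 to -0.77 and passed only without replicate 3 of TSLP mature. The cause of these changes, and of those in the counts of called genes, was not tested.

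Replicate numbers were shared by the groups. In 7 of 18 same-numbered pairs the deviations correlated above 0.1 (r of -0.08 to 0.39). Of the 12 libraries, 8 correlated best on average with libraries of their own number. These values do not settle whether libraries of the same number belong together, and the main fit did not pair them. With a replicate block the interaction was 1.68 for Pim1 and 1.21 for Pim2, and no Pim call changed. A block moved no count over all genes past 1.5 times.

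Counts of called genes moved more. The mature comparison called 2634 genes, but 1714 with its own 2 groups in the fit. The same change gave 5318 against 5020 for the IL-3 stages, 1985 against 2731 for the TSLP stages and 1889 against 1443 for the immature comparison. Leaving out single libraries gave 240 to 723 genes for the interaction (455 in full) and 588 to 2243 for TSLP immature minus IL-3 immature cells (1443 in full). The lowest counts came without replicate 2 of IL-3 mature and replicate 3 of TSLP immature, and the highest without replicate 1 of TSLP mature. Of the list counts, 34 of 570 under other settings moved past 1.5 times (11 under other processing, 23 without a library). Without single libraries, the AKT, SGK and S6 kinases had 0 to 4 called in the immature comparison (1 in full, 3 with a replicate block), 3 to 5 in the IL-3 stages and 1 to 3 in the TSLP stages, and the substrates 8 to 15 in the TSLP stages. Of 67 changes of named list genes, 52 passed in every setting, 15 lost the call in at least 1, and 0 reversed.

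Leaving out all 3 ribosomal rows, chosen after seeing the data, gave 1.74 and 1.26 for the Pim1 and Pim2 interactions. For Pim2 in IL-3 immature cells, 14 to 29 counts per library limit the precision.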

Other observations

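The counts of Rn45s were 1.00 to 1.02 times the sum of Rn18s and Rn28s1 in each of the 12 libraries. The 45S precursor RNA contains the 18S and 28S sequences. The 3 rows together held 14.7% to 25.0% of the counts in the IL-3 libraries and 17.3% to 40.1% in the TSLP libraries.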
